A study of Homo sapiens with 27 samples.

Results

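UDP-glucuronosyltransferases of the UGT2B family sit in the membrane of the endoplasmic reticulum and transfer glucuronic acid from UDP-glucuronate to steroids, bile acids and drugs, which makes them water soluble and ready for export. In prostate cells this reaction is the main irreversible step that inactivates dihydrotestosterone and its metabolites. UGT2B15 and UGT2B17 are the members best known for conjugating androgens there, and androgen is known to lower their mRNA in LNCaP cells. UGT2B28 also conjugates androgens, UGT2B7 has a broad range that includes steroids and opioids, UGT2B10 joins glucuronic acid to the nitrogen of amines such as nicotine, and the substrates of UGT2B11 are poorly defined.

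The 6 genes UGT2B7, UGT2B10, UGT2B11, UGT2B15, UGT2B17 and UGT2B28 were taken by symbol from 4 deposited tables of reads that end in a poly(A) tail. All 6 were present among the 19540 genes of the 3′ UTR table, the 20216 of the intron table, the 20268 of the coding sequence (CDS) table and the 20266 of the table of 10 kb downstream regions. Poly(A)-ClickSeq (PAC-seq) sequences the place where a transcript meets its tail. A count was therefore read as where transcripts of a gene ended and how many were sampled. The study describes a filter for A-rich genomic sequence for its poly(A) site calls and names none for these region counts. Reads from A-rich sequence inside a transcript may thus be among them, which was not tested. The 27 libraries came from 3 human prostate cancer cell lines with 9 libraries each. LNCaP is a hormone-sensitive line that needs androgen, LNCaP95 is an LNCaP derivative that grows without it, and 22Rv1 is a hormone-insensitive line.

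In each line, 3 libraries carried a control shRNA (CTRL sh) and 3 each carried CPSF1 sh1 or CPSF1 sh2, the shRNAs that target CPSF1, which encodes the largest subunit of the factor that recognises the poly(A) signal. All cells had been transduced with lentivirus, selected with puromycin and collected 72 h after seeding, so no group was free of virus or selection. LNCaP and 22Rv1 cells grew in RPMI 1640 with serum and LNCaP95 cells in the same medium without phenol red. In comparisons with LNCaP95, line and medium therefore cannot be told apart. The RNA came from whole cultures, in which fewer cells that express a gene and less RNA per cell cannot be told apart.

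The libraries held 3452413 to 12425417 reads over the 4 tables, of which the 10 kb table had 170330 to 728430. The shallowest were 22Rv1 CTRL sh replicate 1 and LNCaP CPSF1 sh2 replicate 2. CPSF1 3′ UTR reads were lower after knockdown in every line and without overlap, at 137 to 184 counts per 1000000 reads (CPM) in LNCaP controls against 53.0 to 98.4 after knockdown, 66.15 to 109.8 against 34.1 to 60.4 in LNCaP95, and 133.7 to 202 against 85.0 to 114 in 22Rv1. All 8 luminal prostate markers were above 1 CPM in every group. Of the 6 hepatocyte markers, chosen because liver is rich in UGT2B transcripts, the sum was at most 18.6 CPM in LNCaP and 4.65 CPM in LNCaP95, whereas 22Rv1 libraries held 228.5 to 366 CPM, nearly all of it ALB at 303 CPM in the controls. The 5 stromal markers summed to 31.8 to 129 CPM.

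The 6 genes lie together on chromosome 4 (hg19), in a cluster that arose by duplication. UGT2B17 (counted 3′ UTR chr4:69402602-69403342), UGT2B15 (chr4:69512048-69512821) and UGT2B11 (chr4:70065369-70066157) are on the minus strand. UGT2B10 (chr4:69696598-69697214), UGT2B7 (chr4:69978195-69979005) and UGT2B28 (chr4:70160254-70161068) are on the plus strand. Each counted 3′ UTR runs 300 bases past its annotated end, and its 10 kb region starts where that extension stops.

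CPSF1 belongs to the complex that binds the hexamer AATAAA or its common variant ATTAAA, so the sequence at the annotated end of each 3′ UTR is shown for 3 of the 6 genes, which hold either hexamer within 60 bases of it. The capitals mark the hexamer, and each stretch reads 5′ to 3′ on the strand of the gene (reference sequence of GRCh37, the build of the tables).
UGT2B15: attggatctgaaAATAAAgtgtcatccaag
UGT2B17: aaatcttcaataATTAAAttatgtaaaaag
UGT2B28: aacactagggaaAATAAAaaataatataaa
The hexamer starts 31 bases before the annotated end in UGT2B15 (chr4:69512361-69512390), 6 before it in UGT2B17 (chr4:69402890-69402919) and 22 before it in UGT2B28 (chr4:70160735-70160764), with an uncertainty of 1 base from the way the tables count starts. The hexamer nearest before the annotated end is thus AATAAA in UGT2B15 and UGT2B28 and ATTAAA in UGT2B17, and the UGT2B15 window held 2 hexamers. Copies were also counted over the whole counted 3′ UTRs, with their 300-base extension and including these windows. There AATAAA occurred 2 times in UGT2B15, 1 time each in UGT2B17 and UGT2B28 and 2 times in UGT2B10, and ATTAAA 1 time each in UGT2B17 and UGT2B11. Of the 3 genes shown, UGT2B17 alone thus held a copy outside its window, its AATAAA. Neither hexamer was found within 60 bases of the annotated ends of UGT2B10 and UGT2B11. Among 731 annotated 3′ UTR ends on chromosome 4, 79.8% held AATAAA or ATTAAA in that window and 64.6% held AATAAA, searched on the strand of the gene. A match describes letters and is not a site of cleavage.

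Further downstream, the 10 kb regions held 20 copies of AATAAA in UGT2B15, 20 in UGT2B17, 20 in UGT2B10, 22 in UGT2B28, 13 in UGT2B7 and 6 in UGT2B11, beside a median of 11 over 656 such regions on chromosome 4. The first AATAAA of the 10 kb region lay 2225 bases into it in UGT2B15 and 2202 in UGT2B17. It lay at base 65 in UGT2B10, 755 in UGT2B28, 1735 in UGT2B11 and 5155 in UGT2B7. A newer annotation of the same build lets the UGT2B10 gene run 528 bases into its own 10 kb region. For UGT2B11 an opposite-strand lncRNA covers the whole 10 kb region, and no other gene on the same strand enters any of the 6 regions.

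Because the paralogs are alike, reads of one can map to another, and whether reads with several matches were counted is not given in the sources used here. As a measure, each region was cut into all of its 50-base words and these were looked up in the rest of the UGT2 locus on both strands. The 3′ UTRs of UGT2B15 and UGT2B17 shared 0% of their words, although 33.1% of the UGT2B15 CDS words occur in UGT2B17, so their 3′ UTR counts rest on sequence particular to each gene within the locus. UGT2B11 and UGT2B28 were less separable. In the 3′ UTR, 15.7% of UGT2B11 words occur in UGT2B28 and 18.0% of UGT2B28 words occur in UGT2B11. By identity over the aligned 3′ UTRs, UGT2B7 and UGT2B28 stood at 87.5% and UGT2B11 and UGT2B28 at 47.9%. Shared words also made up 19.0% of the UGT2B28 10 kb region and 26.1% of the introns of each of UGT2B11 and UGT2B28. In the 10 kb regions, 4.91% of UGT2B15 words occur in UGT2B17 and 4.21% of UGT2B17 words occur in UGT2B15. In the CDS, shared words made up 9.59% in UGT2B7 and 33.2% to 48.5% in the other 5 genes, and CDS counts are the least certain for that reason. The CDS and 3′ UTR regions also overlap by 257 bases in UGT2B7 and 271 bases in UGT2B28 (alternative transcripts), so a read there could be counted in both tables.

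**Figure D1:**
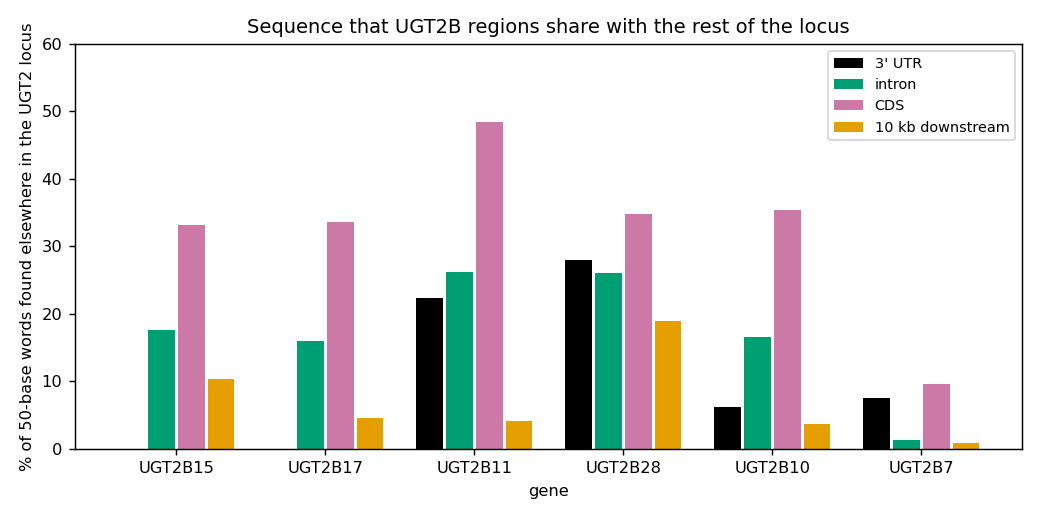
Bars give the percentage of each region's 50-base words that occur elsewhere in the UGT2 locus, for the 6 genes and the 4 counted regions. The 3′ UTRs of UGT2B15 and UGT2B17 stand at 0%, the CDS of UGT2B11 at 48.5%.

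The first comparison asked how much of each paralog the lines expressed without knockdown. Per kilobase of counted 3′ UTR, UGT2B15 led in LNCaP controls with 662 CPM per kb, followed by UGT2B17 (275.5), UGT2B11 (241), UGT2B28 (124), UGT2B10 (66.0) and UGT2B7 (10.0). In LNCaP95 the order changed to UGT2B11 (526 CPM per kb), UGT2B15 (193.6), UGT2B28 (181.2), UGT2B17 (122.9), UGT2B10 (29.45) and UGT2B7 (10.46). In 22Rv1 UGT2B15 kept 148.9 CPM per kb, and the other 5 genes had 16.09 or less. The libraries of UGT2B17 and UGT2B11 overlapped in LNCaP, as did those of UGT2B15 and UGT2B28 in LNCaP95, so neither pair can be ranked.

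UGT2B15 had 513, 524 and 499 CPM of 3′ UTR reads in the LNCaP controls, 138, 168 and 144 in the LNCaP95 controls, and 92.5, 121 and 132 in the 22Rv1 controls. LNCaP stood above both other lines without overlap, at a log2 difference of -1.78 ± 0.15 (SE) for LNCaP95 against LNCaP (adjusted p = 1.44e-07) and -2.13 ± 0.16 for 22Rv1 against LNCaP (adjusted p = 1.13e-08). LNCaP95 and 22Rv1 did not differ past the threshold (-0.35, 95% interval -0.66 to -0.05, adjusted p = 0.0609). That difference passed without 22Rv1 CTRL sh replicate 3 (-0.47, adjusted p = 0.0357) and when all 4 tables set the scale (-0.42, adjusted p = 0.0494).

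UGT2B17 had 166, 242 and 205 CPM in LNCaP controls, 84.85, 113 and 75.5 in LNCaP95 controls and 0, 1.21 and 1.68 in 22Rv1 controls. The 22Rv1 values are counts of 0, 4 and 8 reads, so UGT2B17 mRNA ending in its 3′ UTR was close to undetected in that line. Its LNCaP95 level was 1.17 ± 0.205 log2 units under LNCaP (a difference of -1.17, adjusted p = 2.49e-04), and 22Rv1 was lower again (-7.34 ± 0.34 against LNCaP, adjusted p = 5.92e-11). In the 10 kb region 22Rv1 controls had 0, 3 and 1 reads, and against 3 reads per library LNCaP controls were at least 45.5-fold and LNCaP95 controls at least 12.4-fold higher.

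UGT2B11 and UGT2B28 were the members that were higher in LNCaP95 than in LNCaP. UGT2B11 had 406, 404 and 436 CPM in LNCaP95 controls, against 209, 172 and 189.5 in those of LNCaP and 9.71, 4.22 and 2.104 in those of 22Rv1. The groups did not overlap, and the LNCaP95 level was 1.12 ± 0.205 log2 units above LNCaP (adjusted p = 3.7e-04). UGT2B28 differed by 0.54 ± 0.20 (adjusted p = 0.0444), a call that was lost when any of the 3 LNCaP or 3 LNCaP95 control libraries was left out (adjusted p up to 0.171).

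Over all members, 5 of 6 differed between LNCaP95 and LNCaP (39.3% of the 11501 genes tested differed), 6 of 6 between 22Rv1 and LNCaP (47.2%), all lower in 22Rv1, and 5 of 6 between 22Rv1 and LNCaP95 (54.6%), again all lower in 22Rv1. The median log2 difference of the 6 genes between 22Rv1 and LNCaP was -3.41, beside 0.015 over all genes. In the 10 kb table, where 5 members passed the filter, 5 differed between LNCaP95 and LNCaP (5.77% of all genes tested), 4 between 22Rv1 and LNCaP (10.6%) and 3 between 22Rv1 and LNCaP95 (15.3%). The directions were those of the 3′ UTR: UGT2B10, UGT2B15 and UGT2B17 were lower and UGT2B11 and UGT2B28 higher in LNCaP95 than in LNCaP. UGT2B10 lost that call without LNCaP CTRL sh replicate 2 or LNCaP95 CTRL sh replicate 2 (adjusted p up to 0.0778), and UGT2B11 lost it without LNCaP CTRL sh replicate 1 or 3 or LNCaP95 CTRL sh replicate 2 (adjusted p up to 0.193) and when all 4 tables set the scale (adjusted p = 0.0668).

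**Figure D2:**
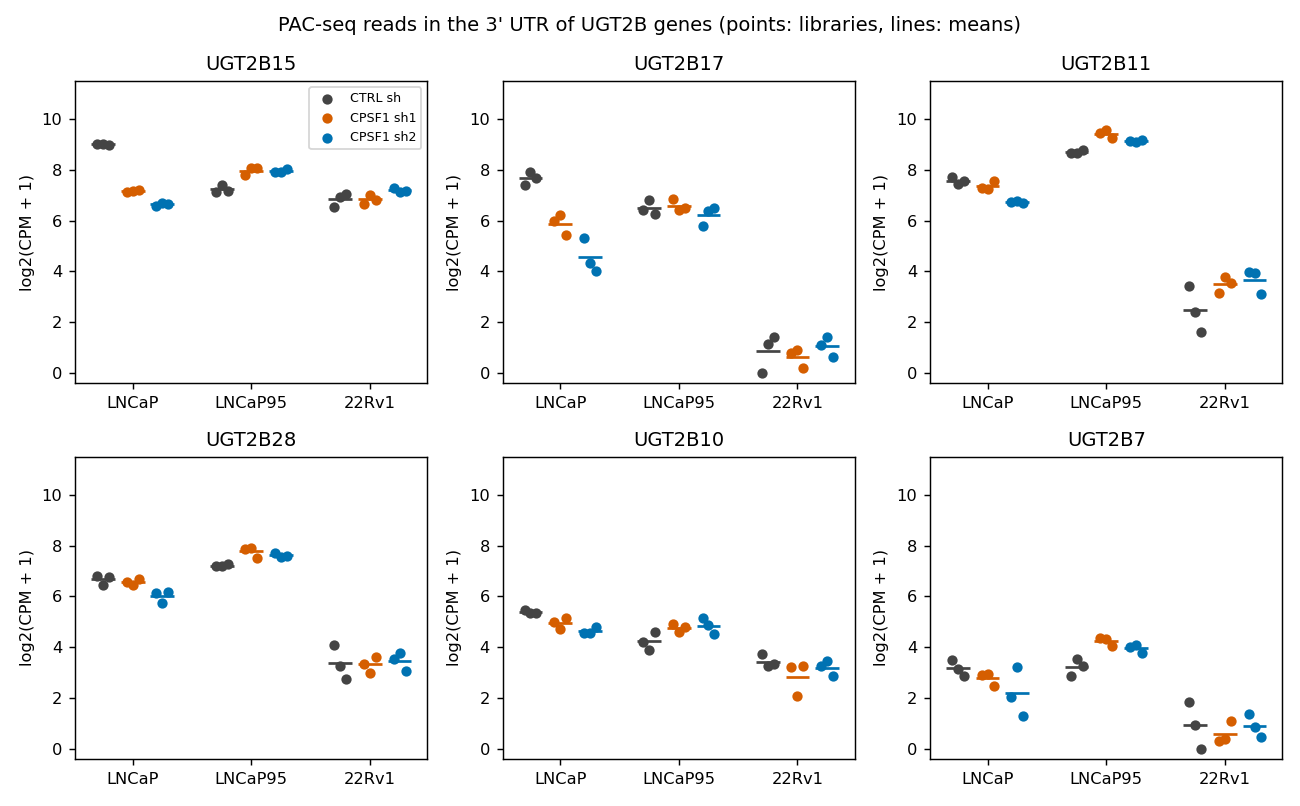
Points give log2(CPM + 1) of 3′ UTR reads in each of the 27 libraries, with 3 libraries per group, for each gene by line, and short lines give group means. UGT2B15 and UGT2B17 drop after CPSF1 knockdown in LNCaP, UGT2B15, UGT2B11, UGT2B28 and UGT2B7 sit higher after knockdown in LNCaP95, and all genes but UGT2B15 are low in 22Rv1.

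The next comparison asked how the 3′ UTR reads changed when CPSF1 was lowered. In LNCaP the androgen-conjugating pair UGT2B15 and UGT2B17 fell the furthest of the family. UGT2B15 went from 499 to 524 CPM in the controls to 140, 142 and 149 with CPSF1 sh1 and 93.8, 104 and 98.75 with CPSF1 sh2. All 6 knockdown libraries lay below all 3 controls, and CPSF1 sh2 libraries lay below those of CPSF1 sh1. It fell by 2.06 ± 0.15 on the log2 scale (adjusted p = 5.37e-08), by 1.81 with CPSF1 sh1 alone and by 2.36 with CPSF1 sh2 alone.

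UGT2B17 had 63.0, 73.1 and 42.65 CPM with CPSF1 sh1 and 38.9, 19.3 and 15.25 with CPSF1 sh2 in LNCaP. Every knockdown library was below the lowest control at 166 CPM. It fell by 2.25 ± 0.30 (adjusted p = 5.5e-05), by 1.77 with CPSF1 sh1 and by 3.01 with CPSF1 sh2. The lowest value but one, 19.3 CPM, is 35 reads in the shallowest LNCaP library.

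The other 4 members moved less in LNCaP. UGT2B10 fell by 0.56 ± 0.16 (adjusted p = 0.0212), from 39.3 to 43.2 CPM in the controls to 22.4 to 34.1 after knockdown. That call was lost without any 1 of the 3 LNCaP controls (adjusted p up to 0.0934) and with CPSF1 sh1 alone (adjusted p = 0.0778). UGT2B11 was at -0.47 ± 0.175 (adjusted p = 0.0692), UGT2B28 at -0.33 ± 0.17 (adjusted p = 0.192) and UGT2B7 at -0.72 ± 0.39 (adjusted p = 0.214). UGT2B11 and UGT2B28 passed with CPSF1 sh2 alone (-0.84, adjusted p = 0.00195, and -0.62, adjusted p = 0.0333) and were at -0.18 and -0.09 with CPSF1 sh1 alone. UGT2B11 also passed without CPSF1 sh1 replicate 3 (adjusted p = 0.0222) and with no filter on low counts (adjusted p = 0.035). In all, 3 of 6 members were called, all lower, beside 18.3% of 11021 genes in either direction, and the median log2 change was -0.64 over the members and 0.015 over all genes.

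In LNCaP95 the family moved the other way. UGT2B15 rose from 138, 168 and 144 CPM to 220.5, 265 and 268 with CPSF1 sh1 and 244, 242 and 264 with CPSF1 sh2, with no overlap, a log2 change of 0.75 ± 0.13 (adjusted p = 2.98e-04). UGT2B11 rose from 404 to 436 CPM in the controls to 691, 751 and 606 with CPSF1 sh1 and 560.2, 552 and 573 with CPSF1 sh2 (0.59 ± 0.13, adjusted p = 0.00292). UGT2B28 rose by 0.50 ± 0.13 (adjusted p = 0.00889) and UGT2B7 by 0.95 ± 0.23 (adjusted p = 0.00419), each with all 6 knockdown libraries above all 3 controls, UGT2B7 on 34 to 100 reads a library. All 4 of these genes rose with either shRNA alone.

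UGT2B10 also rose in LNCaP95 (0.59 ± 0.20, adjusted p = 0.0326), but only 4 of 6 knockdown libraries exceeded every control. Its call was lost with CPSF1 sh1 alone (adjusted p = 0.123), when all 4 tables set the scale (adjusted p = 0.0688), and without any of CTRL sh replicates 1 and 2, CPSF1 sh1 replicate 1 and CPSF1 sh2 replicates 1 and 2 (adjusted p up to 0.16). UGT2B17 was the exception, at 113, 85.6 and 89.9 CPM with CPSF1 sh1 and 54.0, 81.6 and 89.3 with CPSF1 sh2 against 75.5 to 113 in the controls (-0.08, 95% interval -0.43 to 0.28, adjusted p = 0.771). Thus 5 of 6 members were called, all higher, beside 30.5% of 11277 genes in either direction, with a median of 0.59 over the members and 0.014 over all genes.

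In 22Rv1, 4 members passed the filter and 0 were called, where 1.47% of 11501 genes were. UGT2B15 stayed in the range of its controls with CPSF1 sh1, at 101.2, 128 and 113 CPM, and lay above them with CPSF1 sh2, at 154, 140 and 143 (0.15, 95% interval -0.15 to 0.46, adjusted p = 0.721). UGT2B11 had the largest estimate, on 10 to 15 reads per control library (1.35 ± 0.40, adjusted p = 0.111, unadjusted p = 0.00376), and 4 of 6 knockdown libraries lay above all controls. It was called by DESeq2 (1.27, adjusted p = 0.042) and without CTRL sh replicate 1, the shallowest library of all (1.90, adjusted p = 0.0106). UGT2B17 had 1 to 8 reads per knockdown library, so a change of its 3′ UTR reads was not detectable at this depth.

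Whether the knockdown acted differently on the genes in different lines was tested itself, as a line-by-knockdown term over the 27 libraries. CPSF1 3′ UTR reads fell to unequal depth. Their means went from 154 CPM to 64.0 (CPSF1 sh1) and 71.3 (CPSF1 sh2) in LNCaP, from 91.3 to 39.7 and 48.5 in LNCaP95, and from 160 to 102.5 and 90.0 in 22Rv1. Differences between lines cannot be told apart from differences in knockdown depth, whose part was not tested. Between LNCaP95 and LNCaP all 6 members differed, each with the higher change in LNCaP95, beside 9.58% of 11711 genes. The difference was 2.82 ± 0.21 log2 units for UGT2B15 (adjusted p = 3.79e-11), 2.18 ± 0.40 for UGT2B17, 1.69 ± 0.52 for UGT2B7, 1.16 ± 0.29 for UGT2B10, 1.07 ± 0.27 for UGT2B11 and 0.84 ± 0.25 for UGT2B28. Those of UGT2B7 and UGT2B28 missed the threshold when all 4 tables set the scale (adjusted p = 0.0597 and 0.0737). Between 22Rv1 and LNCaP, UGT2B15 (2.24 ± 0.21, adjusted p = 1.4e-08) and UGT2B11 (1.89 ± 0.38, adjusted p = 0.00265) differed, beside 5.11% of genes. Between 22Rv1 and LNCaP95, 0 of 6 did, beside 10.7% of genes, and the smallest adjusted p was 0.0676 for UGT2B15 (unadjusted p under 0.05 for 3 members).

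Reads in the 10 kb downstream of the genes were taken as ends of transcripts past the annotated 3′ UTR. The scale of each table was its own read total, so a change here is relative to the other 10 kb regions. The share of all reads that fell in 10 kb regions rose from 4.885% ± 0.093 (SD, n = 3) to 6.28% ± 0.67 (n = 6) in LNCaP, from 3.62% ± 0.13 to 6.01% ± 0.72 in LNCaP95 and from 4.66% ± 0.25 to 5.865% ± 0.34 in 22Rv1. With the total of the 4 tables as the scale, the median change of all 10 kb regions was higher by 0.54 in 22Rv1, 0.49 in LNCaP and 0.89 in LNCaP95 on the log2 scale.

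UGT2B15 had 193, 376 and 284 CPM of 10 kb reads in LNCaP95 controls, 1169, 1423 and 1241 with CPSF1 sh1 and 1018, 999 and 1030 with CPSF1 sh2, that is 63 to 100 reads per control and 515 to 738 per knockdown library. Every knockdown library was far above every control, a change of 1.96 ± 0.26 (adjusted p = 1.92e-09). In 22Rv1 it went from 178, 165 and 165 CPM to 408, 341 and 366 with CPSF1 sh1 and 465, 457 and 497 with CPSF1 sh2, again without overlap (1.26 ± 0.22, adjusted p = 3.12e-06). In LNCaP it went down, from 875, 1024 and 1011 CPM to 744, 891 and 779 with CPSF1 sh1 and 627, 401 and 479 with CPSF1 sh2 (-0.58 ± 0.19, adjusted p = 0.0198). The LNCaP call did not hold with CPSF1 sh1 alone (adjusted p = 0.382), without CTRL sh replicate 2 or 3 or CPSF1 sh2 replicate 3 (adjusted p up to 0.104), or when all 4 tables set the scale (-0.10, adjusted p = 0.773).

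UGT2B17 had 95.1, 218 and 130 CPM of 10 kb reads in LNCaP95 controls, 520, 615 and 538 with CPSF1 sh1 and 386, 384 and 486 with CPSF1 sh2. The groups did not overlap (1.68 ± 0.28, adjusted p = 8.18e-07), although its 3′ UTR reads were flat in the same libraries. In LNCaP, where its 3′ UTR reads fell, the 10 kb reads were 568, 574.5 and 484 CPM in the controls, 626, 557.5 and 487 with CPSF1 sh1 and 454, 266 and 328 with CPSF1 sh2 (-0.27, 95% interval -0.67 to 0.12, adjusted p = 0.416). With CPSF1 sh2 alone they fell by 0.71 (adjusted p = 0.0197), with CPSF1 sh1 alone the change was 0.03, and when all 4 tables set the scale it was 0.21 (adjusted p = 0.55). In 22Rv1 the knockdown libraries had 5 to 17 reads against 0, 3 and 1 in the controls, at least 1.55-fold higher against 3 reads per control library, with an adjusted p of 0.122. That comparison passed when all 4 tables set the scale (adjusted p = 0.0161). In the same knockdown libraries UGT2B15 held 143 to 398 reads in its own 10 kb region. Since 4.21% of UGT2B17 10 kb words occur in UGT2B15, reads of UGT2B15 may be among those few UGT2B17 reads, which was not tested.

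UGT2B28 in LNCaP and UGT2B11 in LNCaP95 had more 10 kb reads after knockdown, though not with both shRNAs alike. In LNCaP UGT2B28 rose by 0.85 ± 0.24 (adjusted p = 0.00644), from 194.5, 189 and 228 CPM to 457, 568 and 502 with CPSF1 sh1, whereas CPSF1 sh2 libraries had 336, 160 and 188 and straddled the controls. With CPSF1 sh2 alone the change was 0.09 (adjusted p = 0.887), and the call was lost by DESeq2 (adjusted p = 0.221) and without CTRL sh replicate 2 (adjusted p = 0.053). In LNCaP95 UGT2B11 rose by 0.84 ± 0.27 (adjusted p = 0.0121), from 153 to 267 CPM to 253 to 485, with an adjusted p of 0.126 for CPSF1 sh2 alone and up to 0.0919 without CTRL sh replicate 1 or 3. The other changes of these genes were not called, at 0.31 for UGT2B28 in LNCaP95 (adjusted p = 0.368), 0.69 for UGT2B11 in LNCaP (adjusted p = 0.129), and -0.42 for UGT2B11 (adjusted p = 0.823) and -0.09 for UGT2B28 (adjusted p = 0.935) in 22Rv1. UGT2B10 was at 1.13 ± 0.54 in LNCaP95 on 1 to 8 reads per control (adjusted p = 0.111). When all 4 tables set the scale, UGT2B11 passed in LNCaP (1.18, adjusted p = 0.00567), UGT2B10 in LNCaP95 (2.03) and 22Rv1 (1.25) and UGT2B28 in LNCaP95 (1.19). UGT2B7 had 0 or 1 reads per control library in every line and at most 7 after knockdown, so no fold is given.

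By line, the 10 kb reads of 2 of 6 members were called in LNCaP, UGT2B28 higher and UGT2B15 lower, beside 14.7% of 13441 genes. In LNCaP95, 3 of 6 were called, all higher beside 27.7%, where the median change over all genes was 0.219. In 22Rv1, 1 of the 5 tested was called, beside 9.99%. The knockdown changes in 10 kb reads differed between LNCaP95 and LNCaP for UGT2B15 (2.59 ± 0.30, adjusted p = 1.44e-10) and UGT2B17 (2.00 ± 0.34, adjusted p = 2.27e-05), beside 2.48% of genes, and between 22Rv1 and LNCaP for UGT2B15 (1.89 ± 0.31, adjusted p = 2.91e-05), beside 1% of genes. Between 22Rv1 and LNCaP95, 4.15% of genes and 0 members differed, where the smallest unadjusted p was that of UGT2B15 at -0.69 ± 0.32 (adjusted p = 0.22), which passed when all 4 tables set the scale (-1.08, adjusted p = 0.0209).

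**Figure D3:**
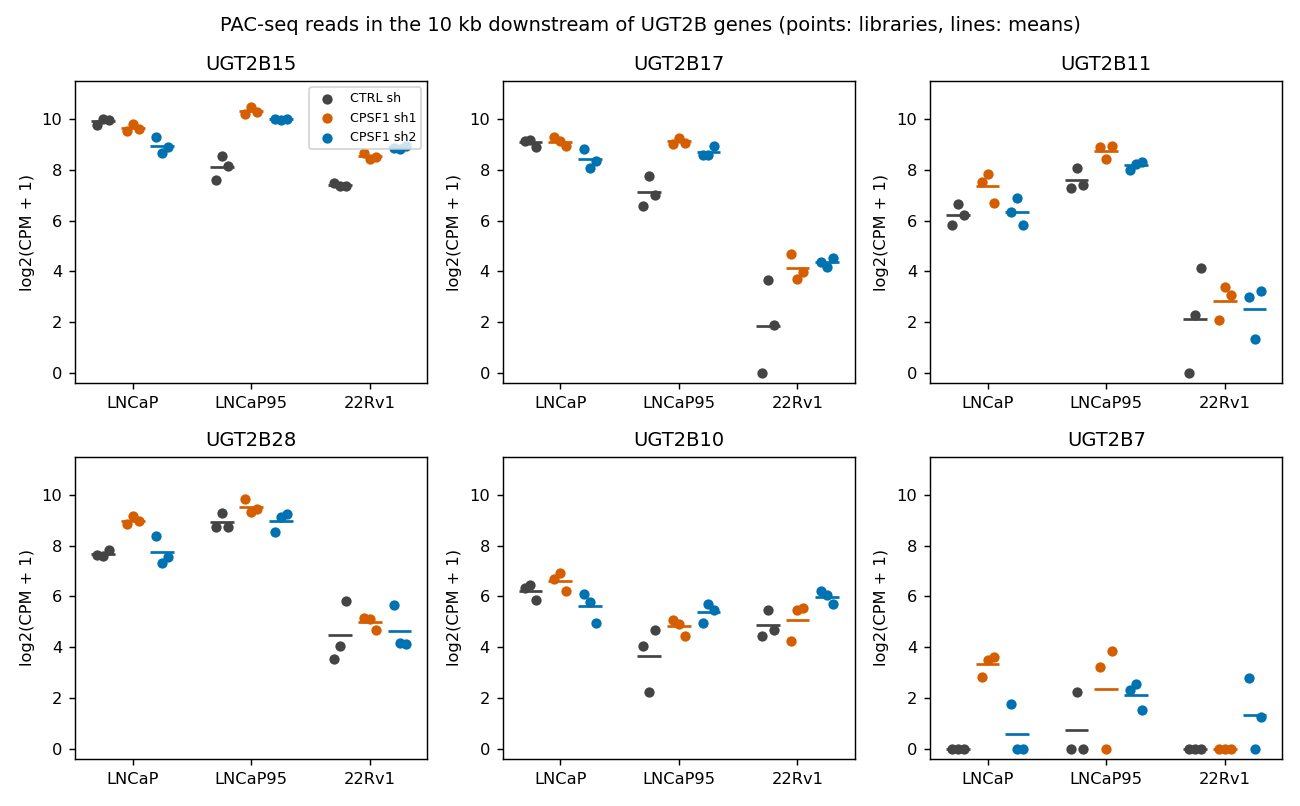
Points give log2(CPM + 1) of reads in the 10 kb downstream region in each of the 27 libraries, with 3 libraries per group, and short lines give group means. UGT2B15 and UGT2B17 rise after knockdown in LNCaP95 and UGT2B15 rises in 22Rv1, while UGT2B7 stays at a few reads or none.

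The balance between downstream and annotated ends was tested as reads of the 10 kb region over those of the 3′ UTR within each library. It rose for UGT2B15 in all 3 lines, by 1.46 ± 0.28 log2 units in LNCaP (adjusted p = 4.81e-04), 1.24 ± 0.30 in LNCaP95 (adjusted p = 0.00213) and 1.11 ± 0.28 in 22Rv1 (adjusted p = 0.0114). The 22Rv1 call was lost with CPSF1 sh1 alone (adjusted p = 0.0765) and without CTRL sh replicate 2 or 3 (adjusted p up to 0.105). For UGT2B17 it rose by 2.104 ± 0.31 in LNCaP (adjusted p = 1.99e-05) and 1.81 ± 0.32 in LNCaP95 (adjusted p = 5.37e-05), and 22Rv1 had too few reads to test. The reads behind these ratios moved differently, since in LNCaP the 3′ UTR reads of both genes fell and in LNCaP95 their 10 kb reads rose. Whether the change in ratio differed between lines was not tested. UGT2B28 passed in LNCaP (1.08 ± 0.325, adjusted p = 0.0268), but not with CPSF1 sh2 alone (adjusted p = 0.318) nor in 7 of 9 fits that left out 1 library (adjusted p up to 0.117), which kept the call only without CPSF1 sh2 replicate 2 or 3. In counts, LNCaP had 3 of 6 members called beside 10.3% of genes, LNCaP95 had 2 of 6 beside 28%, and 22Rv1 had 1 of 4 beside 7.45%, and every member called had the higher ratio after knockdown.

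As shares of each gene's own reads, 10 kb reads made up 10.4% ± 0.38 of UGT2B15 in LNCaP controls (SD, n = 3) and 32.2% ± 2.27 after knockdown (n = 6), 7.055% ± 1.64 and 29.4% ± 3.85 in LNCaP95, and 9.36% ± 4.22 and 25.0% ± 3.51 in 22Rv1. For UGT2B17 they made up 10.7% ± 2.28 and 44.8% ± 8.39 in LNCaP, and 4.99% ± 1.38 and 29.8% ± 6.43 in LNCaP95. After knockdown, the 10 kb share of UGT2B17 in LNCaP (32.7% to 56.3% over libraries) overlapped the share of its 3′ UTR reads (23.3% to 50.9%). The CPSF1 sh1 libraries together held 624 reads in the 10 kb region against 726 in the 3′ UTR, and those of CPSF1 sh2 held 406 against 272. UGT2B28 had a 10 kb share of 13.7% ± 2.35 in LNCaP95 controls and 23.5% ± 1.51 after knockdown, but its fitted ratio was not called there (-0.21, adjusted p = 0.654, and 0.81, adjusted p = 0.0628, when all 4 tables set the scale). UGT2B11 kept most reads in its 3′ UTR in LNCaP, 86.6% ± 1.65 before and 84.9% ± 3.78 after knockdown, with 10 kb shares of 2.57% ± 0.75 and 7.87% ± 3.04. These shares rest on counting alone and cover no scaling between tables.

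**Figure D4:**
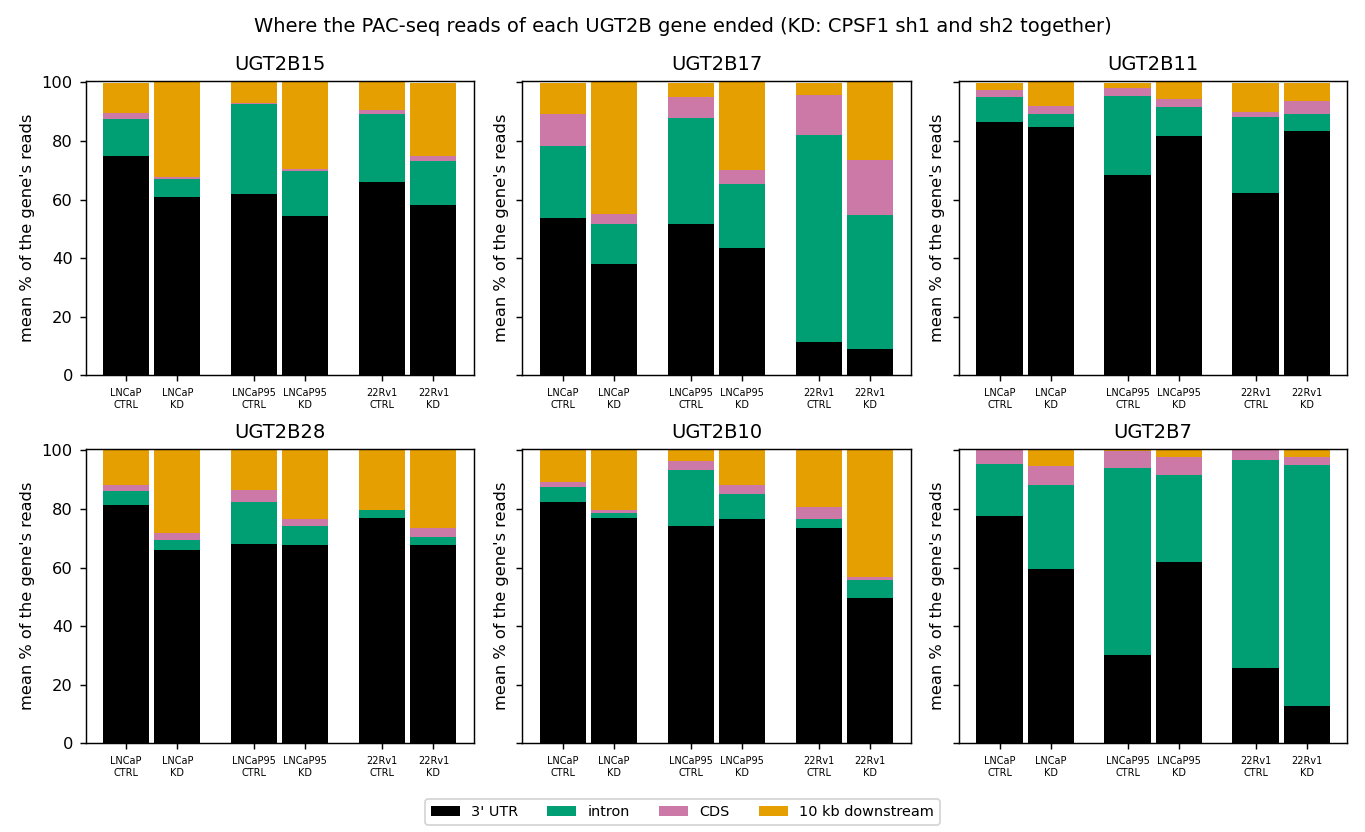
Stacked bars give the mean percentage of each gene's PAC-seq reads that ended in its 3′ UTR, introns, CDS and 10 kb downstream region, for CTRL sh (n = 3) and both CPSF1 shRNAs together (n = 6, marked KD) in each line. The 10 kb part of UGT2B15 grows from 10.4% to 32.2% in LNCaP and from 7.055% to 29.4% in LNCaP95, and the 22Rv1 bars of all genes but UGT2B15 rest on few reads.

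Intronic reads were taken as ends before the last exon. In LNCaP controls UGT2B15 had 161, 197 and 177 CPM of intron reads, against 34.9, 55.4 and 39.6 with CPSF1 sh1 and 22.1, 15.8 and 25.8 with CPSF1 sh2. UGT2B17 went from 164, 212 and 189 CPM to 35.6, 50.02 and 33.8 with CPSF1 sh1 and 29.1, 28.2 and 22.1 with CPSF1 sh2. Neither gene's groups overlapped, and the intron reads fell by 2.40 ± 0.19 in UGT2B15 (adjusted p = 1.54e-10) and by 2.48 ± 0.16 in UGT2B17 (adjusted p = 2.08e-12), about as much as the 3′ UTR reads. UGT2B11 fell by 0.96 ± 0.32 (adjusted p = 0.0378). That call was lost by DESeq2 (adjusted p = 0.271), with CPSF1 sh1 alone (adjusted p = 0.191), and without any of the 3 controls or CPSF1 sh2 replicates 1 and 2 (adjusted p up to 0.185), and UGT2B10 passed when all 4 tables set the scale (-1.80, adjusted p = 0.0383). Thus 3 of 6 members were called lower in LNCaP, beside 14.3% of genes in either direction.

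In LNCaP95 the intron reads of UGT2B11 fell while its 3′ UTR reads rose. They went from 393, 436 and 353 CPM to 221, 223 and 175 with CPSF1 sh1 and 106, 167 and 181 with CPSF1 sh2 (-1.13 ± 0.17, adjusted p = 1.73e-05), all below the controls. UGT2B7 showed the same opposition, with intron reads at -1.14 ± 0.25 (adjusted p = 0.00126) on 73 to 111 reads per control. Its intron share went from 63.9% ± 7.62 of all its reads to 29.8% ± 5.53. The counted UGT2B7 intron region is 59795 bases long, against 12718 to 29326 in the other members. It starts at chr4:69917081, well before the first CDS base at chr4:69962239, so reads far upstream count in this share. UGT2B17 fell by 0.57 ± 0.16 (adjusted p = 0.00998) and UGT2B28 by 0.62 ± 0.205 (adjusted p = 0.0271), neither past the threshold with CPSF1 sh1 alone (adjusted p = 0.146 and 0.392), and UGT2B28 not without CTRL sh replicate 1 or any CPSF1 sh2 library (adjusted p up to 0.256). UGT2B15 intron reads were at -0.08 (95% interval -0.41 to 0.24). So 4 of 6 members were called lower, beside 23.8% of genes.

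In 22Rv1 introns, UGT2B15 was the 1 member of 4 tested that was called, beside 4.37% of genes (-0.59 ± 0.16, adjusted p = 0.0316). The groups overlapped, and the call was lost with either shRNA alone (adjusted p = 0.11 and 0.161), when all 4 tables set the scale (-0.35, adjusted p = 0.343), and without CTRL sh replicate 2 or 3, CPSF1 sh1 replicate 3 or CPSF1 sh2 replicate 1 or 3 (adjusted p up to 0.231).

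The CDS tables held few reads. In LNCaP, UGT2B17 fell from 147 to 172 reads per control to 0 to 35 per knockdown library (-3.12 ± 0.32, adjusted p = 4.59e-07) and UGT2B15 from 40 to 62 reads to 0 to 15 (-2.93 ± 0.40, adjusted p = 2.15e-05), 2 of 5 members tested beside 7.1% of genes. In LNCaP95, UGT2B15 alone of 6 was called (1.81 ± 0.51, adjusted p = 0.0176), on 4 to 8 reads per control, beside 12.5% of genes. It was lost with CPSF1 sh1 alone (adjusted p = 0.264) and without CTRL sh replicate 2 or 3 or CPSF1 sh2 replicate 2 (adjusted p up to 0.0871). In 22Rv1, 0 of 2 tested were called, beside 1.01% of genes, with unadjusted p above 0.05 for both.

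**Figure D5:**
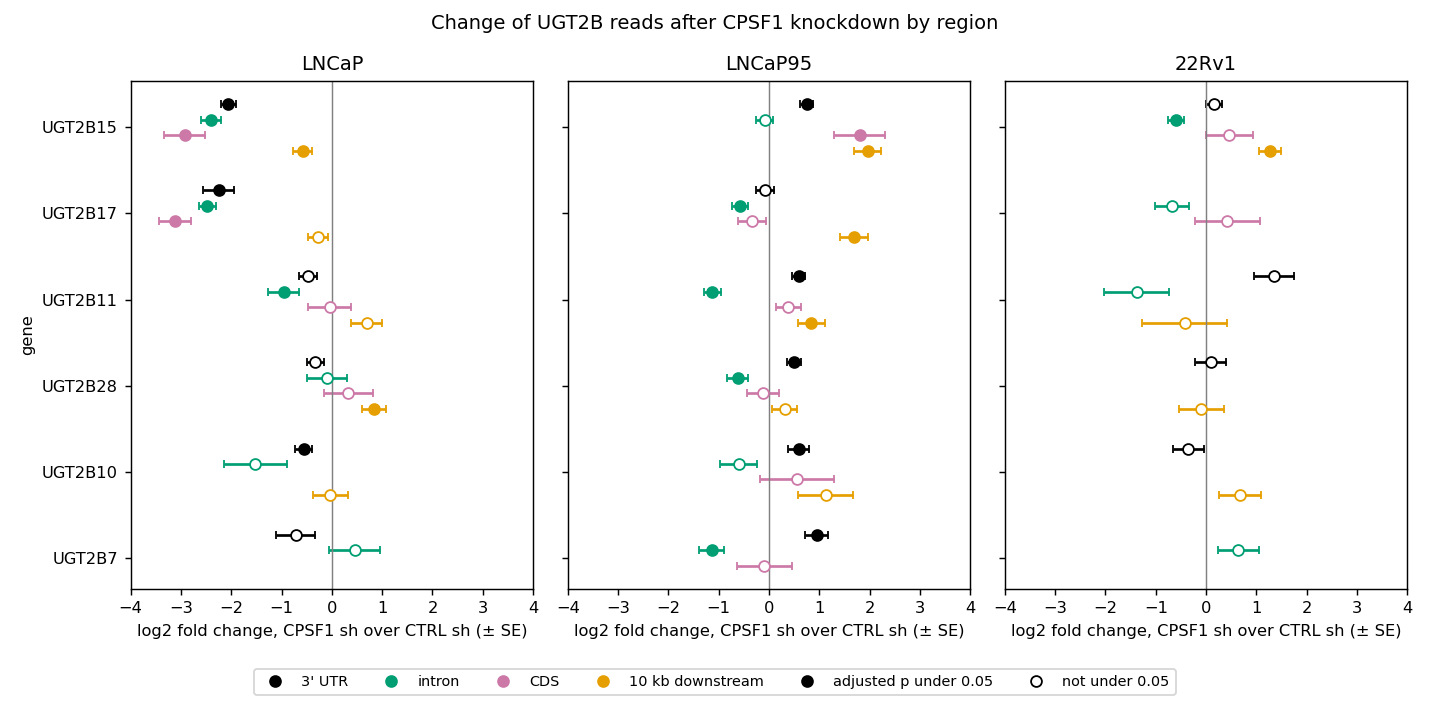
Points give the log2 fold change of CPSF1 sh over CTRL sh with its standard error (6 against 3 libraries) for each gene, region and line, filled where the adjusted p was under 0.05. Values are left out where a gene was not tested or where no control library held more than 3 reads. UGT2B15 and UGT2B17 lie left of 0 in 3′ UTR, introns and CDS in LNCaP, and right of 0 in the 10 kb region in LNCaP95.

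Summed over the 4 regions, a gene's reads were taken to approximate its polyadenylated output wherever it ended. In LNCaP the sum fell for UGT2B15 (-1.68 ± 0.15, adjusted p = 4.66e-07) and UGT2B17 (-1.75 ± 0.22, adjusted p = 1.78e-05), 2 of 6 beside 27.5% of genes. The 10 kb reads are part of this sum. In LNCaP95 the sum rose for UGT2B15 (0.82 ± 0.13, adjusted p = 1.02e-04), UGT2B10 (0.44 ± 0.17, adjusted p = 0.0463) and UGT2B28 (0.41 ± 0.14, adjusted p = 0.0257), 3 of 6 beside 34.3%. Of these, UGT2B15 alone kept its call with CPSF1 sh2 alone (adjusted p = 0.0637 for UGT2B10 and 0.1 for UGT2B28), and leaving out 1 library ended the call of UGT2B10 in 5 of 9 fits (adjusted p up to 0.216) and of UGT2B28 without any 1 of the controls (adjusted p up to 0.0914). UGT2B10 also missed the threshold with CPSF1 sh1 alone (adjusted p = 0.158) and with no filter on low counts (adjusted p = 0.0755). In 22Rv1, 0 of 6 were called, beside 7.57% of genes, and UGT2B11 had the smallest adjusted p (0.82 ± 0.31, adjusted p = 0.128, unadjusted p = 0.0189).

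A list of 21 other genes of glucuronidation was followed in the same fits, and few of its genes passed the filter. Of the 9 UGT1A genes, 7 were listed with 0 reads in the 3′ UTR table in every library and none had over 14. These genes share their last exons, where counting by gene may assign a read to none of them, so their 0 reads do not measure expression. In the 3′ UTR, 7 genes of the list passed the filter in 22Rv1, 5 in LNCaP95 and 4 in LNCaP. UGDH, which makes UDP-glucuronate, fell by 0.95 ± 0.12 in LNCaP95 (adjusted p = 1.22e-05), from 602 to 621 CPM in the controls to 278 to 351, the line in which UGT2B 3′ UTR reads rose. In LNCaP its controls had 112 to 115 CPM and its knockdown libraries 91.7 to 130.5, and the change differed between these lines by -1.01 ± 0.15 (adjusted p = 2.53e-05). GUSB, the lysosomal enzyme that removes glucuronic acid, fell by 0.87 ± 0.145 in LNCaP (adjusted p = 4.43e-04), and UXS1, which turns UDP-glucuronate into UDP-xylose, rose by 0.54 ± 0.16 in LNCaP95 (adjusted p = 0.0173). So 1 of 4 was called in LNCaP, lower (18.3% of all genes tested), 2 of 5 in LNCaP95, in opposite directions (30.5%), and 22Rv1 had 0 of 7 called (1.47%). In introns the calls were 2 of 8, both lower, in LNCaP95 (23.8% of all genes), 0 of 5 in LNCaP (14.3%), and in 22Rv1 0 of 8 (4.37%). Downstream reads gave 4 calls of 8 in LNCaP95, 3 of them higher (27.7% of all genes), 1 of 6 in LNCaP, lower (14.7%), and none of 8 in 22Rv1 (9.99%).

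Androgen signalling was followed through the luminal markers, since UGT2B15 and UGT2B17 are androgen-responsive. KLK3, an androgen-responsive gene that encodes prostate-specific antigen, had 1711 ± 85.5 CPM of 3′ UTR reads in LNCaP controls and 390 ± 45.9 after knockdown (-2.12 ± 0.12, adjusted p = 2.46e-09), and 4221 ± 253 against 1413 ± 305 in LNCaP95 (-1.57 ± 0.15, adjusted p = 7.06e-07). KLK3 thus fell in both lines, whereas UGT2B15 fell in one and rose in the other. The summed luminal list went from 5760 to 6091 CPM to 3500 to 4341 in LNCaP, from 7788 to 8716 to 4755 to 6015 in LNCaP95 and from 2549 to 3068 to 2870 to 3444 in 22Rv1, and its part in the UGT2B changes was not tested.

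Across the 27 libraries the members did not follow a single pattern. UGT2B11 and UGT2B28 were closest (Pearson r = 0.988 of log2 CPM in the 3′ UTR table), with shared sequence as stated above, and UGT2B15 with UGT2B28 least close (r = 0.524) among the 5 members with a mean of at least 10 CPM. Among 8787 genes above that mean, those most like UGT2B17 were MAGEA10 (r = 0.974), GTF2H2 and GTF2H2C (both 0.969). Most like UGT2B11 were IRX4 (0.977), GM2A (0.976) and ETV1 (0.975), and most like UGT2B28 were IRX4 and GAGE12B (both 0.979) and GSTT2 (0.977). Those most like UGT2B10 were WNT10A (0.932), EFNA5 (0.927) and ABHD8 (0.921). No gene came as near to UGT2B15, for which SDC4 (0.795), BTN3A2 (0.747) and ZNF83 (0.739) led. These values describe 27 libraries that share 3 cell lines and their depths, and within the 9 LNCaP95 libraries the r of UGT2B15 with UGT2B17 was -0.109, against 0.924 within the 9 LNCaP libraries and 0.669 over all 27.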

How the data were processed

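Per the labels and methods, the authors trimmed reads with the DPAC pipeline, mapped them to hg19 with HISAT2 and counted each at its 3′-most base, by strand, with featureCounts of Subread. The submitters' processing notes name HISAT2 2.1.0 and Subread 2.0.3, and the methods give another Subread version. The deposited values are raw counts, with no pooling or scaling, in 4 tables. Replicates are biological by the study's methods, and no pair of libraries agreed within sampling noise.

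Each table was fitted alone in edgeR 4.0.16 (R 4.3.3), by the quasi-likelihood test with TMM scaling, on genes whose mean over the libraries fitted exceeded 2 CPM. Benjamini-Hochberg adjustment ran over all genes of a fit, and 0.05 was the threshold. Knockdown was fitted within a line (3 against 6 libraries), line differences over the 9 controls, and line-by-knockdown terms over 27 libraries. Ratios were fitted on both tables at once, with a term for every library. Printed CPM use TMM factors over all 27 libraries, whereas fits use those of their own libraries. Intervals are 95% normal intervals from the SE and cover the spread between libraries. Folds against groups at 0 to 3 reads used a floor of 3 reads per library. Alternatives were DESeq2 1.42.0, other scalings and filters, single shRNAs, left-out libraries and a replicate block. The models were tested on simulated counts. Named genes were the 6 members, CPSF1, the pathway and marker lists, and the 3 genes most correlated with each member of at least 10 CPM. Members and lists were chosen with earlier results of these data known. Some items are not reported here.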

Additional observations from a re-analysis of the deposited data

Results flagged for a closer look

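The knockdown changes below differed between lines by a test of the difference itself, with LNCaP as the lower line each time. In the 3′ UTR table LNCaP95 exceeded LNCaP by 2.82 log2 units for UGT2B15, 2.18 for UGT2B17, 1.69 for UGT2B7, 1.16 for UGT2B10, 1.07 for UGT2B11 and 0.84 for UGT2B28 (edgeR, adjusted p from 3.79e-11 to 0.0357). 22Rv1 exceeded LNCaP by 2.24 for UGT2B15 and 1.89 for UGT2B11. In the 10 kb table LNCaP95 exceeded LNCaP by 2.59 for UGT2B15 and 2.00 for UGT2B17, and 22Rv1 exceeded LNCaP by 1.89 for UGT2B15. All of these comparisons share the LNCaP libraries. The medium of LNCaP95 lacked phenol red, and CPSF1 fell to unequal depth in the lines. The part of either in the differences was not tested.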

How the results depend on the processing

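Low counts limit several values. UGT2B17 and UGT2B7 in 22Rv1, all CDS counts in 22Rv1 and UGT2B7 downstream reads rest on few reads, the scale of the 10 kb table moves with the share of downstream reads, and paralogs share sequence.

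Of the 6 genes, those called numbered as follows where an alternative changed the count by over 1.5 times. With CPSF1 sh2 alone there were 5 in LNCaP 3′ UTR, 0 in 22Rv1 introns, 4 in the LNCaP total and 1 in the LNCaP95 total. With CPSF1 sh1 alone there were 2 in LNCaP95 introns and 0 each in 22Rv1 introns, LNCaP95 CDS and the 22Rv1 ratio. DESeq2 called 1 in 22Rv1 3′ UTR and 1 in LNCaP 10 kb. With all 4 tables as the scale there were 0 in 22Rv1 introns, 5 in LNCaP95 10 kb, 3 in 22Rv1 10 kb, 1 for the 10 kb knockdown change between 22Rv1 and LNCaP95, and 5, 4 and 2 for the ratio in LNCaP, LNCaP95 and 22Rv1. Requiring over 2 CPM in every library left 0 in LNCaP CDS, since fewer genes were tested.

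Reversed directions concerned changes that the main test did not call, and the cause was not tested. With CPSF1 sh1 alone UGT2B17 was at 0.097 in LNCaP95 3′ UTR and 0.034 in LNCaP 10 kb, UGT2B15 at -0.025 in 22Rv1 3′ UTR and 0.11 in LNCaP95 introns, UGT2B28 at 0.43 in LNCaP introns, 0.13 in LNCaP95 CDS, 0.040 in 22Rv1 10 kb and 0.13 for the 22Rv1 ratio, UGT2B11 at 0.30 in LNCaP CDS, UGT2B7 at 0.059 in LNCaP95 CDS and 0.0090 in the LNCaP95 total, and UGT2B10 at 0.38 in LNCaP 10 kb and -0.31 in the 22Rv1 total. With CPSF1 sh2 alone UGT2B28 was at -0.35 in the LNCaP total and UGT2B17 at -0.086 in the LNCaP95 total. With all 4 tables as the scale UGT2B28 was at -0.0026 in 22Rv1 3′ UTR, 0.49 in 22Rv1 10 kb, 0.81 for the LNCaP95 ratio and 0.46 for the 22Rv1 ratio, UGT2B17 at 0.21 in LNCaP 10 kb and -0.22 for the 10 kb change between 22Rv1 and LNCaP95, UGT2B10 at 0.45 in LNCaP 10 kb and UGT2B11 at 0.15 in 22Rv1 10 kb. With no filter UGT2B10 was at 8e-04 in LNCaP 10 kb.

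Leaving out 1 library gave 0 to 1 genes called in 22Rv1 3′ UTR, introns, total and ratio and in LNCaP95 CDS, 0 to 2 in LNCaP 10 kb, 1 to 3 in the LNCaP95 total and 3 to 5 between LNCaP95 and LNCaP in 10 kb. Directions turned for UGT2B10 in the 22Rv1 total (-0.037 to 0.17) and LNCaP 10 kb (-0.22 to 0.15), UGT2B11 in 22Rv1 10 kb (-0.89 to 1.32), LNCaP CDS (-0.35 to 0.39) and the 22Rv1 ratio (-2.83 to 0.56), UGT2B15 in LNCaP95 introns (-0.22 to 0.062), UGT2B17 in the 22Rv1 total (-0.13 to 0.15), LNCaP95 3′ UTR (-0.20 to 0.10) and LNCaP95 total (-0.016 to 0.17), UGT2B28 in 22Rv1 10 kb (-0.43 to 1.04), 22Rv1 3′ UTR (-0.26 to 0.49), LNCaP introns (-0.32 to 0.10), the LNCaP total (-0.010 to 0.17) and the 22Rv1 ratio (-0.90 to 1.25), and UGT2B7 in LNCaP95 CDS (-0.38 to 0.20) and between LNCaP95 and LNCaP (-0.12 to 0.24).

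Over 9 pairs per line, deviations of same-numbered libraries correlated at -0.348 to 0.248 in LNCaP (median -0.083), -0.301 to 0.247 in LNCaP95 (median -0.0898) and -0.247 to 0.539 in 22Rv1 (median 0.017), so the numbers were not taken to pair them. A replicate block ended the calls of UGT2B11 in LNCaP introns (-0.97, adjusted p = 0.0602) and UGT2B10 in the LNCaP95 total (0.45, adjusted p = 0.0585), gave one for UGT2B15 between 22Rv1 and LNCaP95 (-0.36, adjusted p = 0.0368), and changed no other call of the 6 genes.

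Over all genes, CPSF1 sh1 alone cut the calls from 3434 to 1661 in LNCaP95 3′ UTR, 169 to 3 in 22Rv1 3′ UTR, 2973 to 1580 and 538 to 135 in LNCaP95 and 22Rv1 introns, 614 to 272 and 50 to 6 in their CDS, 4099 to 2394 and 1436 to 618 in their 10 kb regions, 4655 to 2727 and 1036 to 158 in their totals, and 2834 to 1547 and 752 to 233 in their ratios. CPSF1 sh2 alone gave 1159 against 2019 in LNCaP 3′ UTR and 204 against 348 in LNCaP CDS. DESeq2 gave 387 in 22Rv1 3′ UTR and 81 in 22Rv1 CDS, where no filter gave 80. With all 4 tables as the scale the counts were 294 in 22Rv1 3′ UTR, 220 in LNCaP CDS, 7 in 22Rv1 CDS, 2758 in 22Rv1 10 kb, 1499, 4868 and 2562 for the ratios in LNCaP (970 in the main test), LNCaP95 and 22Rv1, and 572 against 366 and 96 against 148 for the 10 kb changes of LNCaP95 and 22Rv1 against LNCaP.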
